A study of Mus musculus with 18 samples.

Results

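The step from 5 to 6 weeks of age in the RonTK+/+ mammary gland was described from 6 of the 18 arrays in the series. The 3 arrays titled as wild type at 6 weeks were compared with the 3 titled so at 5 weeks, over 18193 genes. Each array was an Affymetrix mouse whole-genome chip hybridised with RNA of the entire gland of untreated virgin females. The other groups of 3 arrays were RonTK+/+ at 7 weeks and RonTK-/-, in which the tyrosine kinase domain of the receptor Ron is deleted, at 5, 6 and 7 weeks. The labels give no strain beyond the Ron genotype. They do not state whether the 3 arrays of a group came from separate animals, so p-values measure the spread between arrays, which may be partly technical. RNA was taken up in TriZol with an added spin that removed fat, so lipid itself was lost before RNA was isolated.

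At this stage of puberty the ducts of the mouse gland are growing into a fat pad made of adipocytes, fibroblasts, vessels and immune cells. Growth is known to depend on estrogen and growth hormone, with amphiregulin and IGF1 as local relays, and macrophages gather around the growing end buds. Adipocytes and secretory epithelium both make fatty acids from glucose-derived citrate, and the SREBP transcription factors drive the genes of fatty acid and sterol synthesis. Interferon response genes are switched on together by type I and type II interferons in many cell types.

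The deposited values are ratios, which for most probe sets are relative to the median of the 9 RonTK+/+ arrays, so 1 stands for that median and 0 for its log2. Such ratios show how arrays differ for a gene but not how abundant its transcript is. Whether a marker of a cell type was present or absent therefore could not be read, and genes were not ranked by level. In whole tissue, fewer cells of a type and less RNA per cell cannot be told apart. With 3 arrays a group, their number limits the precision.

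Arrays of the same age differed in what tissue they held. Skeletal muscle genes (26 measured) had a mean log2 ratio of 0.01, -5.50 and 0.32 in arrays 1, 2 and 3 at 5 weeks and 0.65, -5.32 and -3.88 at 6 weeks. T lymphocyte genes (17 measured) averaged 0.22, 0.96 and -2.52 at 5 weeks and -2.30, 0.62 and 0.06 at 6 weeks, and 15 B lymphocyte genes had the same pattern. Epidermis and hair genes (17 measured) were high in array 3 at 5 weeks (1.07) and array 1 at 6 weeks (1.60) and between -0.16 and -0.04 in the other 4. Arrays rich in muscle, lymphocyte or epidermis transcripts thus lay in both age groups. Luminal epithelium genes (21 measured) averaged -0.03, -0.80 and 0.03 at 5 weeks and 0.18, -0.70 and -0.21 at 6 weeks.

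**Figure D1:**
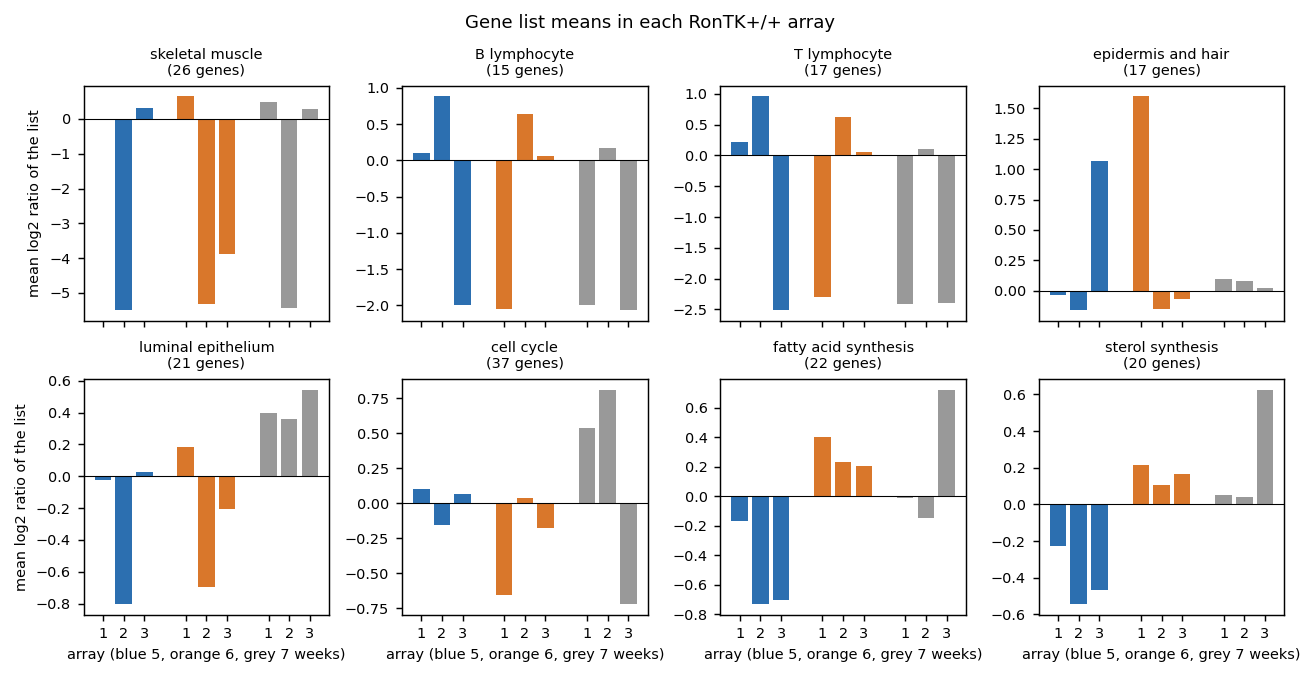
Mean log2 ratio (y axis; the scale differs by panel) of 8 gene lists in each of the 9 RonTK+/+ arrays (x axis; array number 1 to 3 within an age, blue 5, orange 6, grey 7 weeks). Muscle, lymphocyte and epidermis genes differ between arrays of 1 age, whereas for both lipid synthesis lists the 3 bars at 5 weeks lie below 0 and the 3 at 6 weeks above 0.

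No gene passed an adjusted p of 0.05 in limma for 6 against 5 weeks (0 of 18193, 0%), and 759 had an unadjusted p under 0.05, of which 558 were higher (3.07%) and 201 lower (1.1%) at 6 weeks. The smallest adjusted p was 0.263, for Nr5a2, a nuclear receptor gene, with a difference of 0.47 ± 0.07 (log2, SE). With array weights in limma 1002 genes passed, 769 higher and 233 lower. That fit gave RonTK-/- array 1 at 5 weeks a weight of 50.8, against 5.68 for the next highest, and its weight estimate did not converge. No other setting tried called a gene for this step, and every difference below is therefore given as a value that did not pass unless stated. The median difference over all genes was 0.01, and 55.2% of genes lay above 0.

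Both lipid synthesis lists had members among the largest differences. All 3 arrays at 6 weeks lay above all 3 at 5 weeks, with a mean difference of at least 1 log2 unit, for 38 of 18193 genes (0.209%), and below them for 8 (0.044%). Of the 38, 9 were on the list of fatty acid synthesis genes and 4 on that of sterol synthesis, 3 were on lists of adipocyte or epidermis genes, and 22 were on none. The epidermis genes, Krt77 and Krtdap, were high only in array 1 at 6 weeks, with ratios of 20.8 and 9.46. Of the 8, 2 were interferon response genes. The groups did not overlap, whatever the size, for 1348 genes higher at 6 weeks (7.41%) and for 378 lower (2.08%).

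All 22 measured genes of fatty acid synthesis were above 0, with a median of 0.58 (range 0.10 to 1.89). The groups did not overlap for 13 of them (59.1%, against 7.41% of all genes). Of the 22, 12 were higher at an unadjusted p under 0.05 (3.07% of all genes were), but none passed. The list's mean log2 ratio per array was -0.17, -0.73 and -0.70 at 5 weeks and 0.40, 0.23 and 0.20 at 6 weeks. Array 1 at 5 weeks, the least low of its age, was still below each array at 6 weeks.

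Me1, with the largest difference of the list, is the malic enzyme that yields NADPH for lipid synthesis and had ratios of 0.842, 0.241 and 0.269 at 5 weeks and 1.59, 1.48 and 1.17 at 6 weeks. The 2 low arrays were 2 and 3 at 5 weeks, and the groups did not overlap. The difference was 1.89 ± 0.42 (SE, n = 3 a group), a 3.69-fold ratio, with a limma adjusted p of 0.998. Without array 1 at 5 weeks Me1 differed by 2.46, and its adjusted p was 0.0521.

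Slc25a1, the carrier that exports citrate from mitochondria, had ratios of 0.887, 0.477 and 0.403 at 5 weeks and 1.87, 1.62 and 1.43 at 6 weeks. All arrays at 5 weeks were below all at 6 weeks, and the difference was 1.55 ± 0.39 (limma adjusted p = 0.998). Acly, which splits citrate into acetyl-CoA, had ratios of 0.723, 0.576 and 0.466 against 1.36, 1.18 and 1.08, a difference of 1.06 ± 0.23. This is a mean of 6 probe sets, all above 0, whose differences ran from 0.11 to 2.59. Acss2, which makes acetyl-CoA from acetate, went from 0.72, 0.323 and 0.357 to 2.08, 1.32 and 1.11, and its groups were also apart. Pgd, the NADPH-yielding enzyme of the pentose phosphate pathway, differed by 1.17 ± 0.30, with ratios of 0.583 to 0.825 at 5 weeks and 1.34 to 1.69 at 6 weeks. Pgd was on none of the lists. Tkt, transketolase of the same pathway, differed by 1.34 ± 0.41.

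The enzymes that build the chain followed the same array pattern. Fasn, fatty acid synthase, had ratios of 0.99, 0.4 and 0.337 at 5 weeks and 1.29, 1.25 and 1.2 at 6 weeks. Array 1 at 5 weeks was at the RonTK+/+ median and the other 2 were well below it, so the difference of 1.28 ± 0.32 (2.43-fold, limma adjusted p = 0.998) rested mostly on arrays 2 and 3. Acaca, the acetyl-CoA carboxylase of lipogenesis, had the same shape, with ratios of 0.985, 0.354 and 0.324 against 1.63, 1.29 and 1.19. Elovl6, which elongates palmitate, had 0.884, 0.31 and 0.337 against 1.48, 1.2 and 1. Scd2, a stearoyl-CoA desaturase, was uniform instead, with 0.548, 0.558 and 0.565 at 5 weeks and 1.26, 1.05 and 1.03 at 6 weeks. Its close relative Scd1 differed by 0.37 ± 0.21 and its groups overlapped.

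Among regulators and later steps the differences were smaller, apart from Pnpla3, a lipid droplet acyltransferase and lipase that is a known SREBP1 target. Pnpla3 had ratios of 0.678, 0.608 and 0.504 at 5 weeks and 1.68, 1.31 and 1.7 at 6 weeks, a difference of 1.39 ± 0.34 (limma adjusted p = 0.998). Thrsp, a lipogenic cofactor also called Spot 14, differed by 0.49 ± 0.14 with groups apart. Srebf1, which encodes SREBP1, differed by 0.54 ± 0.22 and Mlxipl, which encodes the glucose-sensing factor ChREBP, by 0.57 ± 0.42, and the groups of both overlapped. Lpin1 (0.10 ± 0.33), Gpam (0.23 ± 0.17) and Dgat1 (0.17 ± 0.19), enzymes of triglyceride assembly, lay lowest along with the desaturases Fads1 and Fads2.

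**Figure D2:**
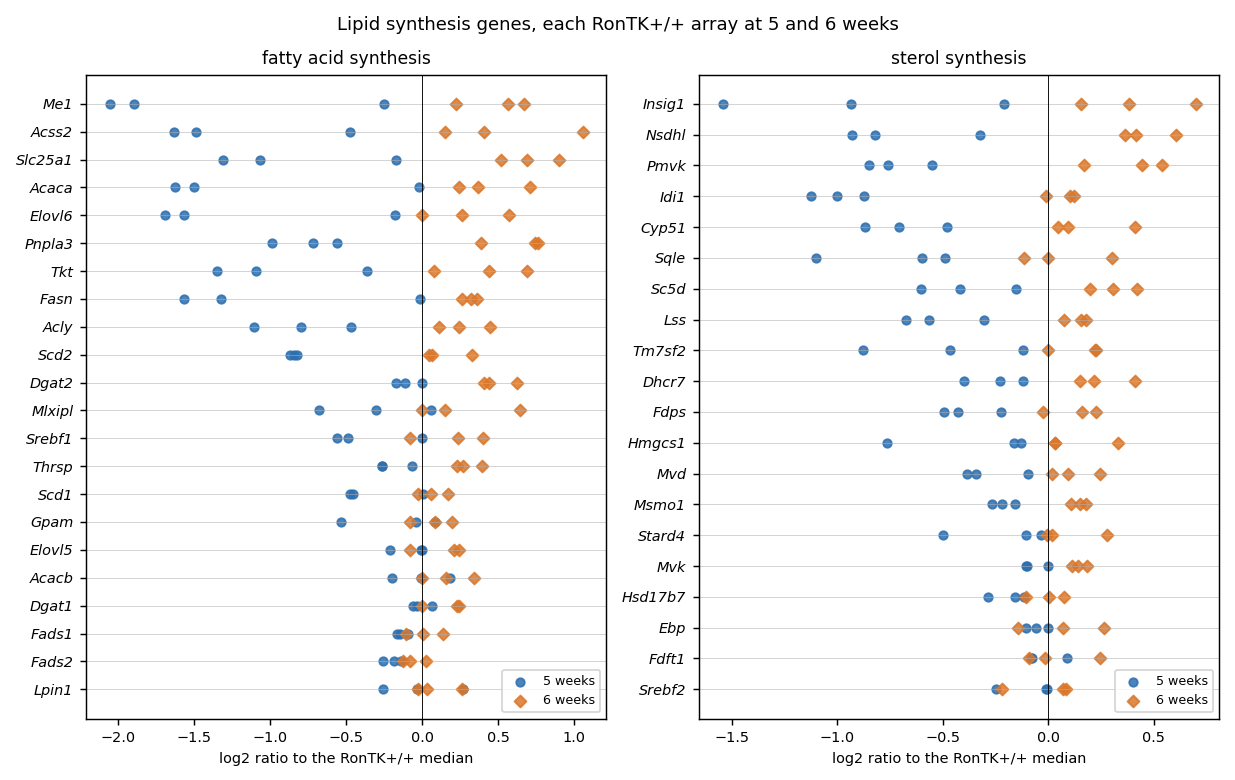
Log2 ratio (x axis) of the 22 fatty acid and 20 sterol synthesis genes (rows, ordered by their difference) in each RonTK+/+ array, circles for the 3 arrays at 5 weeks and diamonds for the 3 at 6 weeks. The circles lie to the left of the diamonds without overlap for 13 of 22 and 17 of 20 genes, and for Me1, Acaca, Elovl6 and Fasn 1 circle lies near 0 and the other 2 near -1 or below.

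All 20 measured genes of sterol synthesis were above 0 too, with a median of 0.50 (range 0.07 to 1.31). The groups did not overlap for 17 (85%, against 7.41% of all genes). Of the 20, 13 were higher at an unadjusted p under 0.05 (3.07% of all genes were), and none passed. The mean log2 ratio per array was -0.23, -0.54 and -0.47 at 5 weeks and 0.22, 0.10 and 0.17 at 6 weeks.

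The promoters of this list are shown because its members all lay above 0 and those in the table share a short motif. The 250 bases before the RefSeq start site (GRCm38.p6) were searched on both strands for CCAAT, the box bound by NF-Y, which acts beside SREBP at sterol genes. Counted by gene, with a match in any promoter of the gene, it was in 16 of 16 sterol genes in the table. It was also in 11 of 17 fatty acid genes (64.7%) and in 10133 of all 27025 genes (37.5%). The sterol regulatory element in the spelling TCACNCCAC was in 1 of 16 sterol and 1 of 17 fatty acid genes, against 1.22% of all. Below, 50 bases are printed on the gene's strand for the 5 members of smallest p in the table, with the match nearest the start site in capitals, which reads ATTGG where the box is on the other strand. A second match in the Idi1 window is in small letters. A match describes the letters only, not binding.
Idi1, chr13:8885556-8885605, plus strand: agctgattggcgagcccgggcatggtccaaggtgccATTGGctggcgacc
Nsdhl, chrX:72918471-72918520, plus strand: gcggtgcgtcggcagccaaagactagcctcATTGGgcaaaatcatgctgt
Cyp51, chr5:4104698-4104747, minus strand: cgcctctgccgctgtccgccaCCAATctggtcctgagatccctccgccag
Tm7sf2, chr19:6067868-6067917, minus strand: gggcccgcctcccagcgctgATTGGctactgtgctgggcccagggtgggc
Insig1, chr5:28071176-28071225, plus strand: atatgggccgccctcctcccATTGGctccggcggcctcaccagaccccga

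Idi1, the isopentenyl diphosphate isomerase, was the most uniform of the 5. Its ratios were 0.545, 0.459 and 0.5 at 5 weeks and 1.07, 0.992 and 1.09 at 6 weeks, so each group was tight and the groups were apart. The difference was 1.07 ± 0.24 (2.1-fold, limma adjusted p = 0.998), and it ran from 1.01 to 1.13 when each array was left out in turn. Nsdhl, a sterol dehydrogenase of the demethylation steps, had 0.8, 0.566 and 0.524 against 1.33, 1.29 and 1.52, a difference of 1.15 ± 0.32. Cyp51, the lanosterol demethylase, differed by 0.87 ± 0.27 with ratios of 0.548 to 0.718 at 5 weeks and 1.03 to 1.33 at 6 weeks. Tm7sf2, a sterol reductase, differed by 0.64 ± 0.19, and Sqle, squalene epoxidase, by 0.79 ± 0.21, both with groups apart.

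Insig1, the membrane protein that retains SREBP when sterols are plentiful and is itself an SREBP target, had the largest difference of the list. Its ratios were 0.864, 0.343 and 0.522 at 5 weeks and 1.62, 1.3 and 1.11 at 6 weeks, a difference of 1.31 ± 0.43. The groups were apart, with array 1 at 5 weeks the nearest to the later age. Pmvk, phosphomevalonate kinase, differed by 1.10 ± 0.37. At the low end Srebf2, which encodes SREBP2, differed by 0.07 ± 0.09, and Fdft1, squalene synthase, by 0.07 ± 0.18, and both groups overlapped.

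White adipocyte genes did not share the size of these differences. Of 18 measured, 13 were above 0, with a median of 0.16, and the groups did not overlap for 4 (22.2%, against 7.41% of all genes). Adipoq, the adiponectin gene, had ratios of 0.944, 1.03 and 1.04 at 5 weeks and 0.914, 1.05 and 1.06 at 6 weeks, and the groups overlapped fully. Plin4, Cidec and Pnpla2, of the lipid droplet and its lipolysis, lay between -0.10 and -0.01. Higher members were Agpat2, an enzyme of phosphatidate synthesis (ratios 0.964, 0.6 and 0.898 against 1.91, 1.76 and 1.86, a difference of 1.20 ± 0.44), and Retn, the resistin gene (0.77 ± 0.22). Lep, the leptin gene, differed by 0.29 ± 0.48 with groups overlapping.

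The lipid medians were also taken within arrays of like muscle mean, a split chosen after seeing the data that leaves 1 array at 1 of the ages in each set. Among the 3 arrays with a low muscle mean (array 2 at 5 weeks, arrays 2 and 3 at 6 weeks) the medians were 0.73 for fatty acid and 0.68 for sterol genes. Among the other 3, the muscle-rich arrays, they were 0.71 and 0.53. The part of tissue content in the lipid differences was not tested. With each array left out in turn the fatty acid median ran from 0.50, without array 2 at 5 weeks, to 0.73, without array 1 at 5 weeks, with 21 or 22 genes above 0. The sterol median ran from 0.44 to 0.58, with 19 or 20 above 0.

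Of the 10 genes of smallest p among the 38, 4 were on no list, namely Pgd and 3 others. Mup10, a member of the major urinary protein family of lipocalins, had the largest difference of all 38. Its ratios were 1, 0.8 and 0.605 at 5 weeks and 2.79, 3.84 and 3.93 at 6 weeks, a difference of 2.15 ± 0.39 (4.44-fold, limma adjusted p = 0.77). The groups were far apart and the difference ran from 1.96 to 2.32 as single arrays were left out. Genes of this family are near-identical copies, so which of them the probe sets read is uncertain. Trpv1, the capsaicin receptor gene, had 0.685, 0.841 and 0.826 against 1.75, 2.04 and 2.11 (1.33 ± 0.27), and Slc16a12, a creatine transporter of the monocarboxylate family, had 0.507, 0.456 and 0.707 against 1, 1.14 and 1.18 (1.01 ± 0.20).

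The interferon response genes were lower at 6 weeks. All 26 measured were below 0, with a median of -0.38 (range -1.04 to -0.10). The groups did not overlap for 14 (53.8%, against 2.08% of all genes). Of the 26, 5 were lower at an unadjusted p under 0.05 (1.1% of all genes were), and none passed. The list's mean log2 ratio was 0.42, 0.20 and 0.31 at 5 weeks and -0.35, 0.01 and -0.06 at 6 weeks, so array 1 at 6 weeks was lowest. Without that array the median was -0.22, and among the 3 muscle-rich arrays, where it is the only array at 6 weeks, the median was -0.66.

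The promoters of this list are shown for the element that interferon factors bind. The core of the interferon-stimulated response element, spelled GAAA, any 2 letters, GAAA, was searched in the same 250 bases on both strands. Counted by gene as before, it was in 10 of 18 genes of the list with a promoter in the table (55.6%). It was in 0 of 17 fatty acid genes and in 3.46% of all genes. The 5 members of smallest p with a match are printed. Capitals mark the match nearest the start site, which reads TTTC, 2 letters, TTTC where it is on the other strand. In the Bst2 and Oas1a windows a second match begins in small letters and overlaps the capitals.
Rsad2, chr12:26456543-26456592, minus strand: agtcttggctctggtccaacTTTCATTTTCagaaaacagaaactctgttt
Bst2, chr8:71537567-71537616, minus strand: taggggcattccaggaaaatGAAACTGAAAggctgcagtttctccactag
Stat2, chr10:128270256-128270305, plus strand: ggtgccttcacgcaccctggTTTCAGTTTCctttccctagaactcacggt
Oas1a, chr5:120907526-120907575, minus strand: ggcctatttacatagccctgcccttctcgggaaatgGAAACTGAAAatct
Ifit3, chr19:34583387-34583436, plus strand: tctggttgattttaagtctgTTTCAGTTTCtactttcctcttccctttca

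Among sensors and regulators, Irf7, the transcription factor that amplifies type I interferon, had ratios of 1.54, 1.72 and 2.15 at 5 weeks and 0.705, 0.935 and 1 at 6 weeks. All arrays at 5 weeks were above all at 6 weeks, and the difference was -1.04 ± 0.40 (limma adjusted p = 1). Stat2, part of the receptor-driven factor ISGF3, had 1.14, 1.13 and 1.05 against 0.763, 1.02 and 0.949, a difference of -0.29 ± 0.15. Ifih1, the RNA sensor MDA5, differed by -0.26 ± 0.17 with groups apart, and Usp18, which damps receptor signalling, by -0.40 ± 0.42 with groups overlapping.

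Among effectors, Oasl2, a 2'-5' oligoadenylate synthase-like gene, had ratios of 2.14, 1.37 and 2.16 at 5 weeks and 0.861, 0.87 and 1 at 6 weeks, a difference of -1.02 ± 0.41. Rsad2, the antiviral enzyme viperin, had 1.53, 1 and 1.53 against 0.89, 0.828 and 0.739 (-0.70 ± 0.23), and array 2 was the lowest of the 5-week group. Bst2, the tether that holds virions at the cell surface, had 1.27, 1.22 and 1.55 against 0.646, 1 and 0.869 (-0.70 ± 0.23). The groups of all 3 genes were apart. Ifit1, Ifit2 and Ifit3, which bind foreign RNA or stabilise its binders, differed by -0.79, -0.56 and -0.64, with groups apart in each. Mx1, a dynamin-like antiviral protein, had a wide spread, with 1.8, 1.5 and 0.966 against 0.424, 1.55 and 1, and its groups overlapped.

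**Figure D3:**
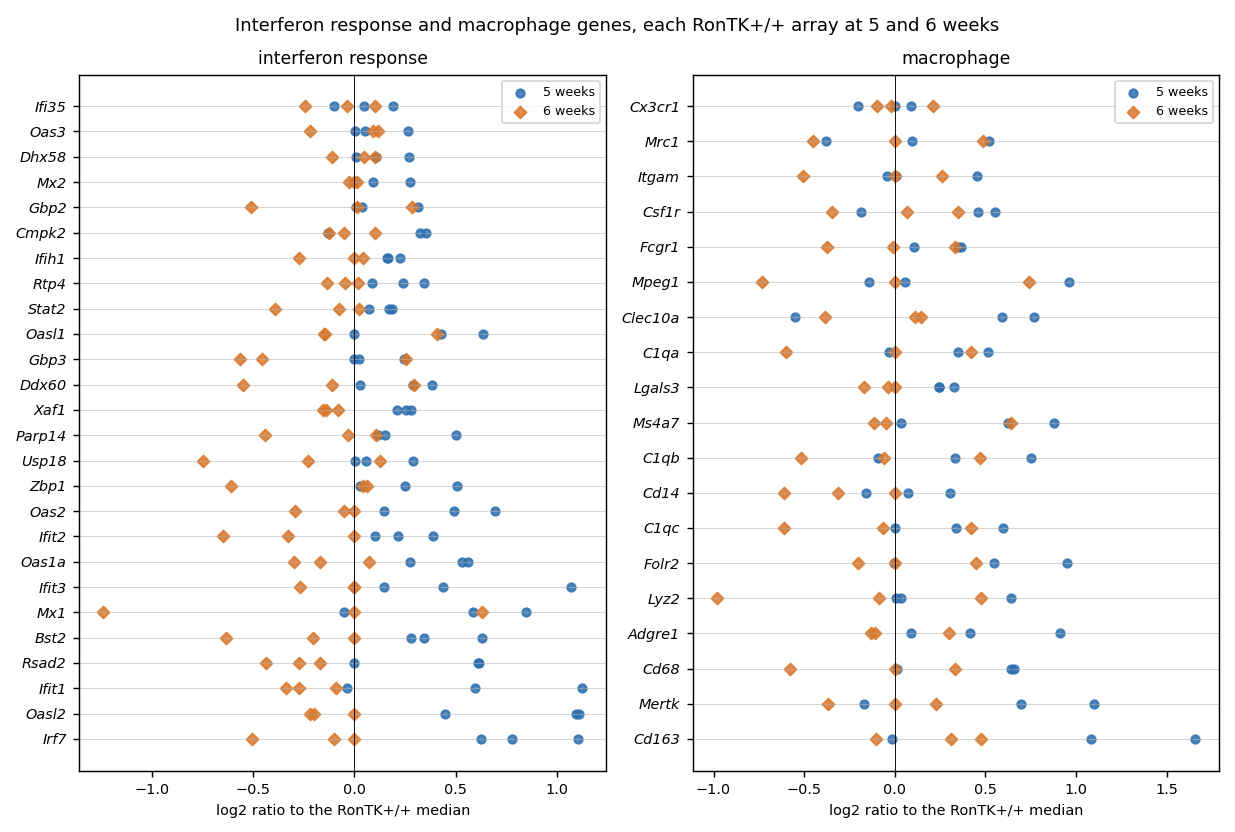
Log2 ratio (x axis) of 26 interferon response and 19 macrophage genes (rows, ordered by their difference) in each RonTK+/+ array, circles for the 3 arrays at 5 weeks and diamonds for the 3 at 6 weeks. Circles lie to the right of the diamonds without overlap for 14 of 26 interferon genes and for 1 of 19 macrophage genes, Lgals3.

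Macrophage genes lay low at 6 weeks as well, but their groups mostly overlapped. Of 19 measured, 18 were below 0, with a median of -0.35. At an unadjusted p under 0.05, 5 were lower (1.1% of all genes were). The groups were apart for 1 (5.26%, against 2.08% of all genes). Adgre1, the gene of a surface antigen used to mark mouse macrophages, had ratios of 1.06, 1.33 and 1.88 at 5 weeks and 0.912, 1.23 and 0.926 at 6 weeks, a difference of -0.45 ± 0.19. Array 2 at 6 weeks was above array 1 at 5 weeks, so the groups overlapped. Cd163, a scavenger receptor for haemoglobin, had 0.989, 2.12 and 3.16 against 0.93, 1.24 and 1.39, with array 1 at 5 weeks as low as the later age. Lgals3, galectin-3, had 1.18, 1.18 and 1.25 against 0.973, 1 and 0.889 (-0.34 ± 0.14).

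The macrophage list differed between arrays of an age as well as between ages. Its mean log2 ratio was -0.02, 0.43 and 0.56 at 5 weeks and -0.39, 0.14 and 0.17 at 6 weeks. Without array 1 at 6 weeks, the array with the highest epidermis mean and a low T lymphocyte mean, the median was -0.13. The part of cell content in the macrophage and interferon differences was not tested.

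The other genes lower at 6 weeks by at least 1 log2 unit with groups apart were 6. Mt2, a metallothionein induced by metals and glucocorticoids, had 1.32, 1.17 and 1.98 against 0.459, 0.616 and 0.823, a difference of -1.24 ± 0.29 (limma adjusted p = 0.998). Pdk4, the kinase that turns off pyruvate dehydrogenase in fasting, had 1.43, 1.49 and 2.13 against 0.35, 0.646 and 1 (-1.44 ± 0.45). For both, array 3 was the highest at 5 weeks and array 1 the lowest at 6 weeks. Cish, a STAT5-induced inhibitor of cytokine and growth hormone signalling, had 1.41, 1.22 and 1.41 against 0.6, 0.539 and 0.78 (-1.09 ± 0.34).

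Prg4, the lubricating proteoglycan 4, had 1.89, 1.57 and 2.7 against 0.924, 0.905 and 1 (-1.09 ± 0.35). Slc27a2, a fatty acid transporter and very-long-chain acyl-CoA synthetase, had 2.44, 1 and 3.56 against 0.815, 0.703 and 0.909 (-1.35 ± 0.58), with array 2 at 5 weeks close to the later group. Krt25, a hair keratin, had 1.09, 1.05 and 40.5 against 0.977, 1 and 0.992. Array 3 at 5 weeks, which is high in epidermis and hair genes, carried the whole Krt25 difference, which ran from -2.74 to -0.11 when each array was left out.

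Cell cycle genes lay mostly below 0, and the groups overlapped for each of them. Of 37 measured, 36 were below 0 with a median of -0.25. None had groups apart (0 of 37, against 2.08% of all genes lower and 7.41% higher) and 0 had an unadjusted p under 0.05 (against 1.1% lower and 3.07% higher). The mean log2 ratio was 0.10, -0.15 and 0.07 at 5 weeks and -0.65, 0.04 and -0.17 at 6 weeks. Array 1 at 6 weeks was the lowest of the 6, and array 2 at 6 weeks lay inside the range at 5 weeks. Mki67, the proliferation marker, had 1.11, 0.804 and 1.12 against 0.394, 1 and 0.789 (-0.56 ± 0.57). Among the 3 muscle-rich arrays the median of the list was -0.70 and among the 3 low in muscle it was 0.08, so its direction depended on the arrays taken.

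Collagen and matrix genes had a median of -0.14 with 6 of 31 above 0, and their direction also turned between the muscle-rich (-0.46) and muscle-low (0.22) arrays. Col1a1, the chain of type I collagen, had 1.12, 0.774 and 1.55 against 0.852, 0.913 and 0.923 (-0.30 ± 0.27). Thbs1, thrombospondin 1, was the 1 member with groups apart (-0.54), which is 3.23% of the list, against 2.08% of all genes lower and 7.41% higher. Bgn, biglycan, differed by -0.22 ± 0.11, and Postn, periostin, by -0.20 ± 0.14, with groups overlapping.

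**Figure D4:**
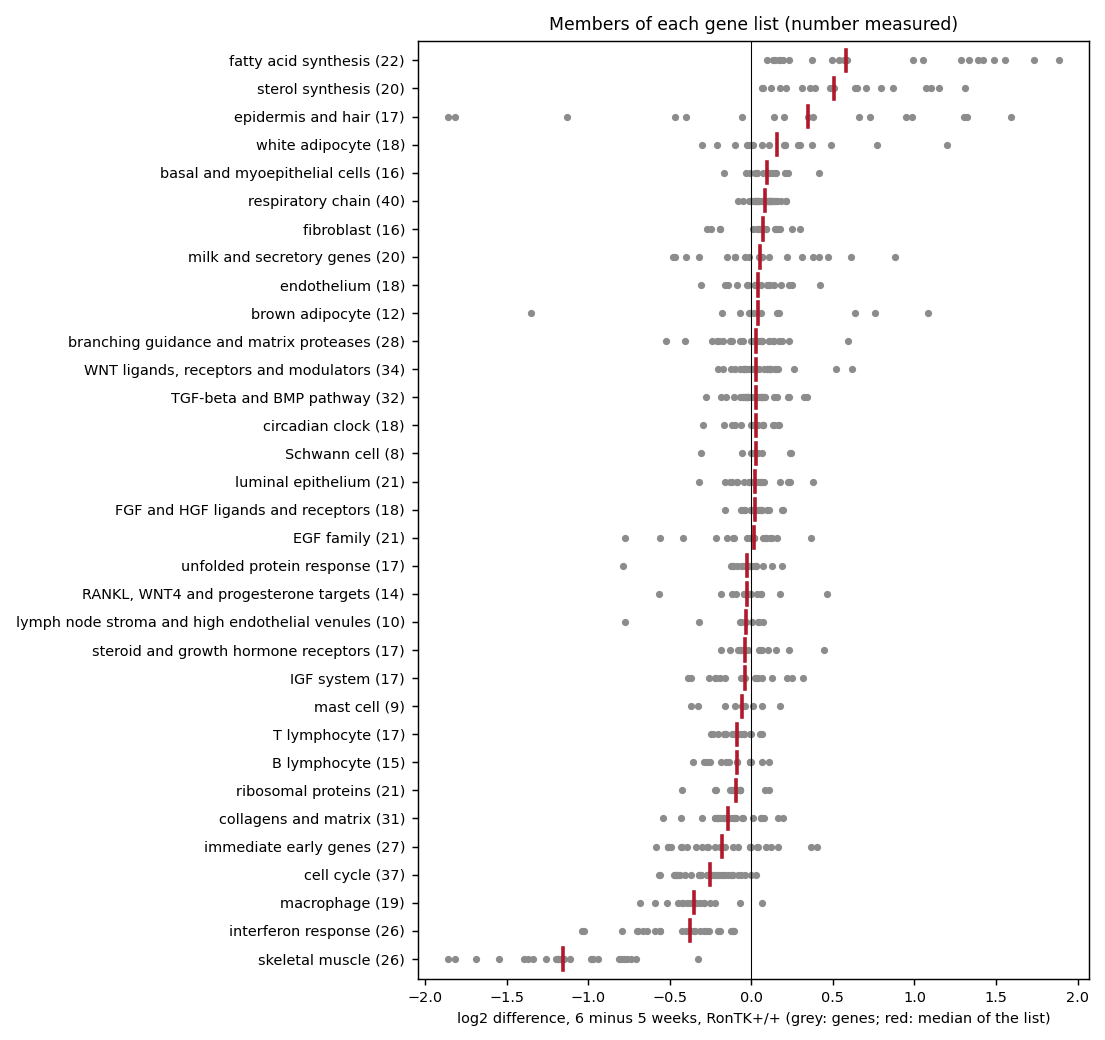
Log2 difference of 6 minus 5 weeks in RonTK+/+ arrays (x axis) for each member (grey) of 33 gene lists (rows, number of measured genes in parentheses), with the median of each list in red. Fatty acid and sterol synthesis have every member above 0, and interferon response and skeletal muscle every member below 0. Muscle genes had no gene with groups apart (against 2.08% of all genes lower and 7.41% higher).

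Epithelial genes lay near 0 as lists. Of 21 luminal genes 11 were above 0 (median 0.02), and of 16 basal and myoepithelial genes 13 (median 0.10). Groups were apart for 0 luminal genes and for 1 basal gene, Mylk (6.25%), near the share of all genes (7.41% higher and 2.08% lower). Without array 1 at 6 weeks the basal median was -0.15, with 3 of 16 above 0, and without array 2 at 5 weeks the luminal median was -0.22, so both directions turned on 1 array. Krt8, a luminal keratin, had ratios of 0.955, 0.542 and 1.07 at 5 weeks and 1, 0.575 and 0.876 at 6 weeks, with array 2 low at both ages. Krt14, a basal keratin, had 1, 0.677 and 0.888 against 1.73, 0.618 and 0.897. Elf5, the transcription factor of the alveolar lineage, had 0.919, 0.586 and 1 against 1.37, 0.627 and 0.906. Differences between array 2 and its companions in each group were larger than those between the ages for Krt8 and Elf5.

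Milk genes had no common direction, with 11 of 20 above 0, and their median ran from -0.14 to 0.40 as single arrays were left out. Csn2, beta-casein, spread from 0.124 to 1.19 at 5 weeks and from 0.0693 to 1.39 at 6 weeks, with array 2 lowest at both ages (-0.47 ± 1.51). Lalba, alpha-lactalbumin, had 1.63, 0.544 and 1 against 3.95, 0.812 and 1.74 (0.88 ± 0.65), and the groups overlapped. Plin2, of the lipid droplet coat, was the member with groups apart and higher (0.31), and Olah, the thioesterase that ends fatty acid chains at medium length, the member with groups apart and lower (-0.48). Each is 5% of the list, against 7.41% of all genes higher and 2.08% lower.

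Hormone receptors and their local relays gave no member called. Of 17 steroid and growth hormone receptor genes 7 were above 0 (median -0.04) and 0 had groups apart, against 7.41% of all genes higher and 2.08% lower. Esr1, estrogen receptor alpha, had 1.02, 0.893 and 1.35 against 1.08, 0.936 and 1.09 (-0.06 ± 0.16). Pgr, the progesterone receptor, had 1.39, 0.573 and 0.807 against 1, 0.747 and 2.18 (0.45 ± 0.47), with array 3 at 6 weeks alone above the rest. Tnfsf11, the progesterone relay RANKL, spread from 0.463 to 1.51 against 0.443 to 1.74, and Wnt4, another progesterone relay, from 0.57 to 0.997 against 0.587 to 1.15. Areg, the gene of amphiregulin, and Prlr were not analysed here.

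In the IGF system 8 of 17 genes were above 0 (median -0.04). Groups were apart and lower for 2 (11.8%, against 2.08% of all genes) and apart and higher for 0 (against 7.41%). Igf1 differed by 0.04 ± 0.21 and Ghr, the growth hormone receptor, by 0.07 ± 0.15. Irs2, an adaptor of the insulin and IGF1 receptors, had 1.27, 1.01 and 1.28 against 0.894, 0.854 and 1 (-0.37 ± 0.15), with groups apart. Its relative Irs1 had 1.02, 0.721 and 0.889 against 1.13, 0.967 and 1.15 (0.32 ± 0.14), with array 1 at 5 weeks inside the later range. The insulin receptor adaptors thus lay on opposite sides of 0, and neither passed.

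In the EGF family 12 of 21 genes were above 0 (median 0.01). Groups were apart and higher for 2 (9.52%, against 7.41% of all genes) and apart and lower for 2 (9.52%, against 2.08%). Btc, the ligand betacellulin, had 1.21, 1.21 and 1.15 against 0.789, 0.927 and 0.969 (-0.42 ± 0.19), with groups apart. Spry4, a feedback inhibitor of receptor tyrosine kinases, had 1.003, 0.879 and 0.953 against 1.05, 1.004 and 1.1 (0.16 ± 0.09), so its groups nearly touched. Nrg2, a neuregulin, differed by 0.09 ± 0.06 and Adam17, the sheddase that frees ligands, by -0.15 ± 0.10. Of the FGF and HGF list, which holds Mst1r (Ron, 0.19 ± 0.23), its ligand gene Mst1 (-0.05 ± 0.09) and Fgf10 (-0.04 ± 0.28), 0 of 18 genes had groups apart (against 7.41% of all genes higher and 2.08% lower).

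WNT (34 genes, median 0.03), TGF-beta and BMP (32, median 0.03), branching and protease (28, median 0.03) and clock genes (18, median 0.03) had between 0 and 3 members with groups apart, which is close to or below the share of all genes (7.41% higher and 2.08% lower). Members apart were Dkk2, a WNT antagonist (0.62), Pth1r, the receptor of the mesenchymal signal PTHLH (0.59), the homeobox gene Msx2 (0.23), the ephrin receptor gene Ephb4 (-0.21) and the clock output gene Hlf (0.17). Mmp3, stromelysin 1, had 0.699, 1 and 1.22 against 1.2, 0.76 and 0.716, with groups overlapping. Dbp, a clock output gene with a strong daily cycle, differed by 0.01 ± 0.36, with a range of 0.622 to 1.29 at 6 weeks. Of 40 respiratory chain genes 35 were above 0 (median 0.08, highest 0.21), but without array 2 at 5 weeks 5 of 40 were and the median was -0.067. Of 21 ribosomal protein genes 2 were above 0 (median -0.10). The groups were apart and lower for 4 of them (19%, against 2.08% of all genes) and apart and higher for 1 (4.76%, against 7.41%).

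The same step in RonTK-/- glands uses none of these arrays, although its ratios share the RonTK+/+ scale. No gene's step differed between genotypes in limma (0 of 18193, smallest adjusted p = 0.682), and 1316 had an unadjusted p under 0.05 (7.23%). With array weights 1665 genes passed, in the fit whose weights did not converge. All 38 genes higher by at least 1 log2 unit in RonTK+/+ were above 0 in RonTK-/- too, where 51% of all genes were. Of the 8 lower genes 3 were below 0 in both.

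The lipid lists were above 0 in both genotypes. In RonTK-/- glands 20 of 22 fatty acid genes were above 0 (median 0.39), and 8 had groups apart and higher (11.2% of all genes did). For sterol synthesis the RonTK-/- values were 19 of 20 above 0, a median of 0.29 and 4 apart. The fatty acid mean log2 ratios in RonTK-/- were -0.16, -0.46 and 0.097 at 5 weeks and 0.39, 0.55 and 0.089 at 6 weeks. Those of the sterol list were -0.018, -0.33 and 0.093 at 5 weeks and 0.35, 0.33 and -0.020 at 6 weeks. In both lists array 3 at 6 weeks lay below array 3 at 5 weeks, so the ages overlapped. The median difference between the steps, RonTK-/- minus RonTK+/+, was -0.24 for fatty acid and -0.19 for sterol genes. For that difference 0 fatty acid and 1 sterol gene had an unadjusted p under 0.05, against 7.23% of all genes. Me1 differed by 1.25 in RonTK-/- against 1.89, Slc25a1 by 1.27 against 1.55, and Idi1 by 0.40 against 1.07. Mup10 differed by 0.35 against 2.15, and the difference between the steps was -1.79 (limma adjusted p = 0.682). Its RonTK-/- ratios were high at both ages, with 2.75, 4.2 and 4.4 at 5 weeks and 3.07, 5.06 and 6.84 at 6 weeks. In RonTK+/+ at 5 weeks they were 1, 0.8 and 0.605.

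The interferon list lay on opposite sides of 0. All 26 genes were above 0 in RonTK-/- (median 0.38), with 2 apart and higher (against 11.2% of all genes) and 0 apart and lower (against 9.01%), and all 26 below 0 in RonTK+/+. Of the 26, 13 had an unadjusted p under 0.05 for the difference between the steps, against 7.23% of all genes, and none passed. The RonTK-/- mean log2 ratios were -0.30, -0.03 and -0.07 at 5 weeks and -0.24, 0.12 and 0.96 at 6 weeks, so array 3 at 6 weeks stood high alone. Irf7 differed by 0.61 in RonTK-/-, Stat2 by 0.51 and Rsad2 by 0.03. For macrophage genes 18 of 19 were above 0 in RonTK-/- (median 0.24). For the difference between the steps 3 had an unadjusted p under 0.05, against 7.23% of all genes. B and T lymphocyte lists had medians of 1.04 and 1.37 in the RonTK-/- step against -0.09 and -0.09 in RonTK+/+. The RonTK+/+ values near 0 balanced opposite arrays. Without array 3 at 5 weeks they were -0.80 for B and -1.21 for T lymphocyte genes, and without array 1 at 6 weeks 0.62 and 0.81. Their part in the immune differences was not tested.

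**Figure D5:**
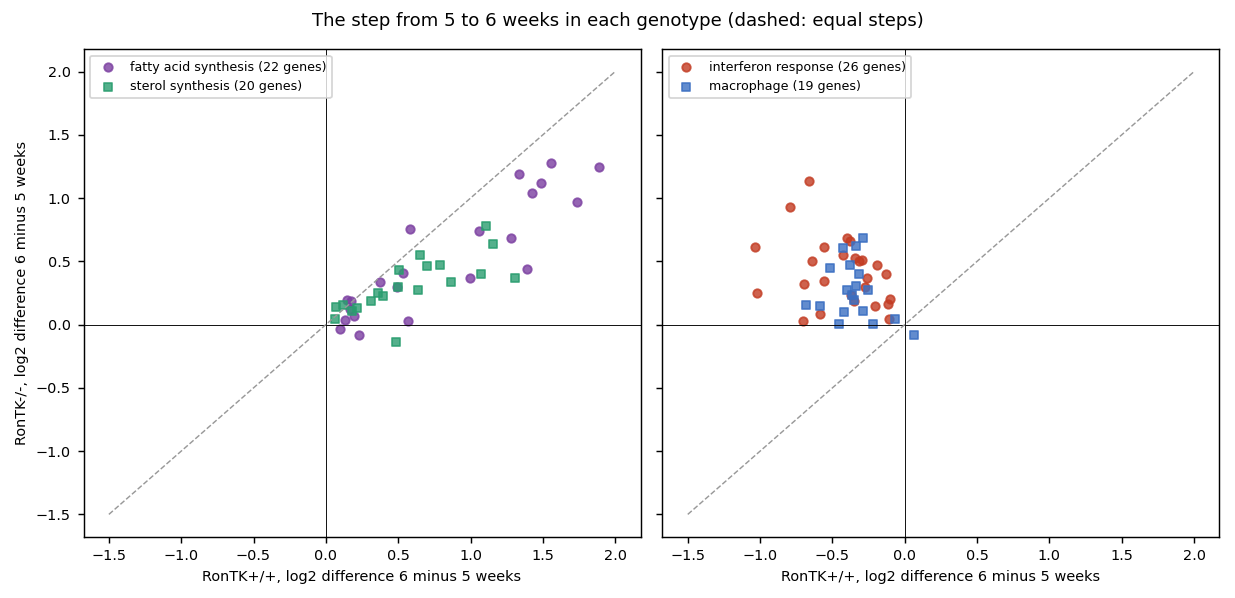
Log2 difference of 6 minus 5 weeks in RonTK-/- (y axis) against that in RonTK+/+ (x axis), 1 point a gene, for the lipid synthesis lists (left) and the interferon and macrophage lists (right), with a dashed line for equal steps. Of the lipid genes 20 of 22 fatty acid and 19 of 20 sterol genes lie at the upper right and the others at the lower right, and interferon genes all lie at the upper left.

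From 6 to 7 weeks in RonTK+/+, a step that shares the 6-week arrays, the medians were -0.13 for fatty acid synthesis (5 of 22 above 0), 0.08 for sterol synthesis (12 of 20), -0.06 for interferon response (9 of 26) and -0.18 for macrophages (3 of 19). Cell cycle genes had a median of 0.49 (37 of 37 above 0) and luminal genes 0.53 (21 of 21), against -0.01 over all genes. The cell cycle mean in the arrays at 7 weeks was 0.53, 0.81 and -0.72, so array 3 lay below every array at 6 weeks. The fatty acid mean in the arrays at 7 weeks was -0.01, -0.15 and 0.72, so array 3 stood above both other ages. Mup10 differed by -1.84 from 6 to 7 weeks and Idi1 by 0.21.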

How the data were processed

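The deposited values are linear ratios for 45101 probe sets, a unit read from the values because the labels name none. Over the 9 RonTK+/+ arrays 87.37% of probe sets have a median within 1e-04 of 1. Of the other 5697, 88% have RonTK+/+ array 3 at 5 weeks at 1.00356. The lowest ratio, 0.01, is shared by 103 of 811818 values. The summary of probe sets, the background step and the software were not given in the sources used here. Signal over background is unknown, and dim probe sets could not be removed. Per the labels' protocols, RNA was amplified for 1 round to aminoallyl-aRNA, labelled with biotin and hybridised.

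A gene's value is the mean log2 ratio, with no pseudocount, of its probe sets with 1 symbol in the platform annotation (34945 probe sets, with 64 controls, 932 with several symbols and 9160 with none left out). Of these 34741 were matched to RefSeq (GRCm38.p6), which changed 0 symbols. limma 3.58.1 (lmFit and eBayes) in R 4.3.3 with data.table (1.17.8) fitted 1 mean for each of the 6 groups to all 18 arrays, with 12 residual and 1.94 prior degrees of freedom. P-values are two-sided and adjusted by Benjamini-Hochberg over all genes, with a call at 0.05, and ± gives the SE of a difference. Groups are called apart when the 3 arrays of an age all lie on the same side of the other 3. The code was tested on simulated data. Figures used Python 3.11.15 with matplotlib 3.10.9 and pandas 2.3.3.

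The members and the 33 gene lists (14 of cell types and 19 of processes, 669 of 721 genes measured) were chosen with earlier results of these data known. Lists are described by counts and medians, with no test. The genes named are those called; where under 10 were called in a direction, up to 10 of smallest p with groups apart and a difference of at least 1; up to 4 of smallest p from each list described; and a fixed set of hormone, epithelial, matrix and clock genes. Other list members are given as examples and were chosen after their values were seen. Alternatives were array weights, quantile normalization, centring of each array, only the groups compared, a block for the replicate number, the median of probe sets, single probe sets, a pseudocount of 0.1, values at the lowest ratio left out, muscle and B lymphocyte means as covariates, other thresholds and each array left out. Sets of muscle-rich and muscle-low arrays were added after seeing the data. Promoters are the 250 bases before the start site in a RefSeq table.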

Additional observations from a re-analysis of the deposited data

Results flagged for a closer look

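For 2 of the 70 named genes the 5- and 6-week groups did not overlap in either genotype. For both, the ages lay in opposite order in RonTK+/+ and RonTK-/-. Over all genes, groups were apart for 7.41% higher and 2.08% lower in RonTK+/+ and for 11.2% and 9.01% in RonTK-/-. The share of all genes with opposite order between the genotypes was not counted. Many of the named genes were picked for a small p in these same arrays. Lgals3, galectin-3, had a step of -0.34 in RonTK+/+ and 0.62 in RonTK-/-, so the RonTK-/- step minus the RonTK+/+ step was 0.96. Spry4, a feedback inhibitor of receptor tyrosine kinases, had groups that nearly touched. The nearest ratios at 5 against 6 weeks were 1.003 against 1.004 in RonTK+/+ and 0.992 against 0.988 in RonTK-/-. Its steps were 0.16 and -0.30, a difference of -0.46. The difference itself was tested with the interaction term in limma, and neither passed (adjusted p = 0.682 for both).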

How the results depend on the processing

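For the step in RonTK+/+ glands no setting tried called a gene except array weights, with 1002 (769 higher and 233 lower), and the same held for the difference between the genotypes' steps, with 1665. Array weights called 20 of the 70 named genes, among them Mup10, Idi1, Acly, Pnpla3, Rsad2 and Bst2. Many of the 70 were named for a small p in these same arrays. In the lists, 6 of 22 fatty acid and 10 of 20 sterol synthesis genes were called higher, against 769 of 18193 genes. Of 26 interferon genes 2 were called lower, against 233 of 18193. Weights ran from 0.218 to 50.8, and their estimation did not reach its tolerance. With each RonTK+/+ array left out in turn limma called 0 genes for the step, 568 to 948 had an unadjusted p under 0.05, and the smallest adjusted p was 0.0521, without array 1 at 5 weeks. Fatty acid, sterol and interferon medians kept their sign in every setting in which list medians were taken. They were not taken with array weights, only the groups compared, single probe sets or values at the lowest ratio left out. Under quantile normalization the medians that moved beyond the spread between arrays were -0.088 for RANKL, WNT4 and progesterone targets. In the muscle-rich arrays alone the medians that moved beyond the spread between arrays were -0.084 for RANKL, WNT4 and progesterone targets, -0.70 for cell cycle, -0.46 for collagens and matrix, -0.049 for white adipocyte, -0.69 for macrophage, 1.28 for epidermis and hair, -0.66 for interferon response and -0.22 for unfolded protein response. In the muscle-low arrays alone the medians that moved beyond the spread between arrays were 0.078 for steroid and growth hormone receptors, 0.070 for RANKL, WNT4 and progesterone targets, 0.19 for WNT ligands, receptors and modulators, 0.074 for TGF-beta and BMP pathway, 0.078 for cell cycle, 0.22 for collagens and matrix, 0.68 for sterol synthesis, -0.20 for interferon response and 0.093 for unfolded protein response. With 1 array left out, the medians ran from -0.11 to 0.052 for RANKL, WNT4 and progesterone targets, -0.25 to -0.048 for immediate early genes and -0.041 to 0.074 for steroid and growth hormone receptors. Other medians also ran widely with 1 RonTK+/+ array left out, from -3.05 to 0.11 for skeletal muscle, -1.21 to 0.81 for T lymphocyte, -0.80 to 0.62 for B lymphocyte, -0.15 to 0.23 for basal, -0.22 to 0.19 for luminal, -0.12 to 0.70 for epidermis and hair, -0.14 to 0.40 for milk, -0.39 to -0.086 for cell cycle, 0.062 to 0.20 for white adipocyte and -0.067 to 0.20 for respiratory chain genes.

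Of 70 named genes 43 kept their sign in every setting run and 27 turned in at least 1. The muscle-rich and muscle-low sets of 3 RonTK+/+ arrays were chosen after seeing the data, and each leaves 1 array at 1 of the ages. The cause was not tested. Under quantile normalization the sign turned for Mmp3 (0.47) and Dbp (-0.093). Under median centring the sign turned for Adipoq (-0.0048) and Dbp (-5.3e-05). With array weights the sign turned for Esr1 (0.031), Fgf10 (0.096), Krt14 (-0.11), Elf5 (-0.014), Dbp (-0.54), Mertk (0.12) and Igfbp5 (-0.012). With the muscle mean as a covariate the sign turned for Tnfsf11 (-0.22), Wnt4 (0.14), Igf1 (-0.014), Krt8 (0.087), Csn2 (0.089), Adipoq (-0.028) and Acta1 (0.48). With the B lymphocyte mean as a covariate the sign turned for Dbp (-0.0026). With both means as covariates the sign turned for Wnt4 (0.13), Igf1 (-0.023), Ghr (-0.0092), Krt8 (0.073), Adipoq (-0.055) and Acta1 (0.61). In the muscle-rich arrays alone the sign turned for Pgr (-0.078), Tnfsf11 (-0.60), Wnt4 (0.22), Igf1 (-0.54), Ghr (-0.11), Csn2 (0.55), Mmp3 (0.38), Adipoq (-0.12), Lep (-0.028), Acta1 (0.11) and Cebpa (-0.075). In the muscle-low arrays alone the sign turned for Esr1 (0.17), Tnfsf11 (-0.20), Wnt4 (0.28), Fgf10 (0.36), Krt8 (0.39), Csn2 (0.49), Mki67 (0.14), Top2a (0.090), Col1a1 (0.24), Postn (0.050), Acta1 (2.24), Birc5 (0.092), Ube2c (0.14) and Cenpe (0.078). The ranges that crossed 0 with 1 array left out were -2.94 to 0.96 for Acta1, -0.042 to 0.069 for Adipoq, -1.47 to 0.70 for Csn2, -0.22 to 0.31 for Dbp, -0.11 to 0.45 for Elf5, -0.19 to 0.11 for Esr1, -0.18 to 0.18 for Fgf10, -0.031 to 0.16 for Ghr, -0.16 to 0.27 for Igf1, -0.18 to 0.56 for Krt14, -0.35 to 0.19 for Krt8, -0.36 to 0.053 for Mmp3, -0.11 to 0.016 for Mst1, -0.40 to 0.58 for Tnfsf11 and -0.27 to 0.24 for Wnt4.

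With the replicate block limma called 0 genes for the step (745 at an unadjusted p under 0.05) and 0 for the difference between genotypes (1303), so no call changed. Every replicate number occurs in every group, so the block could change p-values but not the differences. The medians were therefore bound to be as in the fit without it (0.58 for fatty acid and -0.38 for interferon genes). Same-numbered RonTK+/+ arrays at 5 and 6 weeks correlated over genes by 0.364, 0.871 and -0.547 in their deviations from the group means, so the numbers were not taken as pairs. Signal over background is unknown, so genes near the detection limit could not be told from others, and 3 arrays a group limit the precision of every value.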

Other observations

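Among the 22 genes on no list that were higher at 6 weeks by at least 1 log2 unit with groups apart, those below were picked after their values were seen, and none passed in limma. Ppp1r3b, the subunit that targets a phosphatase to glycogen, had ratios of 0.609, 0.278 and 0.359 at 5 weeks and 1.91, 1.06 and 1 at 6 weeks, a difference of 1.69. Gys2, a glycogen synthase, had 0.714, 0.442 and 0.857 against 1.68, 1.65 and 1.88 (1.42), and Gbe1, the branching enzyme, had 0.976, 0.556 and 0.83 against 2.04, 1.48 and 1.24 (1.02). All 3 were also above 0 in the RonTK-/- step, at 0.89, 0.76 and 0.61. Slc2a5, the fructose transporter, had 0.808, 0.51 and 0.448 against 2.22, 2 and 1.39 (1.69), and Angptl8, a feeding-induced regulator of lipoprotein lipase, had 0.797, 0.258 and 0.353 against 2.46, 0.897 and 1 (1.64).

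Further genes of the 22 were picked in the same way. Pcx, the pyruvate carboxylase that feeds citrate formation, had 1, 0.629 and 0.64 against 1.54, 1.48 and 1.48 (1.02), and Mid1ip1, a partner of Thrsp that activates acetyl-CoA carboxylase, had 0.843, 0.578 and 0.862 against 2.65, 1.45 and 1 (1.07). Mogat2, of triglyceride assembly, differed by 1.03, Gsta3, a glutathione transferase, by 1.22, and Arg1, arginase 1, by 1.68. Among the 10092 probe sets without a single symbol, limma called 0 for the same step, and 508 had an unadjusted p under 0.05.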
